A study of Homo sapiens with 12 samples.

Results

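The genes at the output end of Hippo signalling, 10 in all, were followed across the 4 groups of an RNA sequencing experiment on A375 cells, a long-established line from a human melanoma. The set held the transcriptional coactivators YAP1 and WWTR1 (which encodes TAZ), the DNA-binding partners TEAD1, TEAD2, TEAD3 and TEAD4, and 4 genes widely used as readouts of YAP and TAZ activity, namely CYR61 (CCN1), CTGF (CCN2), ANKRD1 and AMOTL2. Members were taken by symbol from the table of estimated counts, under the older names for the CCN genes. All 10 were found among its 56609 symbols, and all 10 passed the low-count filter that left 21698 genes for testing.

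The cells were unedited (wild type) or carried a CRISPR/Cas9 knockout of MAPKAPK2, which encodes MK2, a kinase downstream of p38 in stress signalling. Each genotype was kept for 48 h with 500 nM JQ1, an inhibitor that displaces BET bromodomain proteins from acetylated chromatin, or with the solvent DMSO as control, as the treatment field has it; the titles of the control samples call them untreated. There were 3 replicates in each of the 4 groups. The study's title places it in work on resistance to BET inhibitors. The labels do not say whether the knockout was a single clone or a pool, nor whether replicates were separate cultures, so the p-values measure only the spread between these samples.

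In the Hippo pathway the kinases MST1 and MST2 (STK4 and STK3), with the scaffold SAV1, activate LATS1 and LATS2, which phosphorylate YAP and TAZ and hold them in the cytoplasm. When the kinases are inactive, YAP and TAZ enter the nucleus, where they have no DNA-binding domain of their own and act through TEAD proteins. In melanoma, high YAP and TAZ activity is known from dedifferentiated, invasive states. Because this control is exerted largely on the proteins, mRNA levels of YAP1 and WWTR1 are not a measure of pathway activity.

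The 12 libraries held 25316899 to 34594295 estimated counts. Values are given as CPM, counts per 1000000 of a library's total after TMM scaling. The knockout was visible in its target: MAPKAPK2 was at 87.9 to 92.1 CPM in wild-type DMSO, 112 to 120 in wild-type JQ1, 11.1 to 13.2 in knockout DMSO and 12.6 to 15.7 in knockout JQ1. Of the melanocyte lineage markers, SOX10 was abundant (389 to 687 CPM) and MITF lower (25.6 to 44.1 CPM), while MLANA, PMEL, TYR and DCT stayed at or below 1.45 CPM. The summed 7 lineage markers, most of it SOX10, were at 501 to 516 CPM in wild-type DMSO, 587 to 677 in wild-type JQ1, 460 to 535 in knockout DMSO and 560 to 766 in knockout JQ1; the part of this in the results was not tested. SOX10 rose with JQ1 (0.37 and 0.36, adjusted p = 0.0189 and 0.019), as did S100B (0.32 and 0.28, adjusted p = 0.00129 and 0.00283). PMEL, at its low level, also rose with JQ1 (1.04 and 1.80, adjusted p = 0.034 and 0.00188). MITF did not pass with JQ1 (-0.13 and 0.08) and was lower in knockout (-0.58 in DMSO, adjusted p = 0.000323, and -0.37 in JQ1, adjusted p = 0.0102). S100B went the other way and was higher in knockout (0.45 in DMSO, adjusted p = 0.000403, and 0.41 in JQ1, adjusted p = 0.000756). SOX10, MLANA and PMEL did not pass between genotypes. Of 3 markers of low-MITF melanoma, AXL, which is also in the list of YAP/TAZ targets, had means of 248, 469, 198 and 398 CPM in the same order of groups. NGFR went from 8.01 to 4.47 CPM with JQ1 in wild type (-0.84, adjusted p = 0.00069) and was at 1.70 and 1.75 CPM in knockout, and SOX9 stayed at or below 0.965 CPM. With DMSO all 3 were lower in knockout: AXL by -0.32 (adjusted p = 0.0224), NGFR by -2.24 (adjusted p = 1.06e-06) and SOX9 by -2.92 (adjusted p = 0.00733). With JQ1 NGFR (-1.35, adjusted p = 0.000163) and SOX9 (-2.24, adjusted p = 0.0155) passed, and AXL did not (-0.24, adjusted p = 0.0892). In any library the 4 keratinocyte markers summed to at most 2.09 CPM, with CDH1 at 0 throughout, the 5 fibroblast markers to at most 13.2, the 3 endothelial to at most 2.35 and the 4 leukocyte markers to at most 17.8 CPM. Knockout JQ1 replicate 3 stood apart from its replicates, with a chi-square per degree of freedom of 26.1 and 27.5 against 3.35 to 7.64 for the other pairs. Without it, 7 genes of the set passed the test for JQ1 in wild type and 7 in knockout, and 1 for knockout in DMSO and 2 in JQ1, where 7, 6, 1 and 2 passed with it. Over all genes, in the same order, 8455, 7481, 2650 and 2331 passed without it and 7187, 7472, 1718 and 1860 with it.

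The promoter windows of 3 of the target genes are shown because these genes, although all are textbook YAP/TAZ targets, had different values under JQ1. Each window is the 250 bases before the RefSeq start (GRCh38.p14, minus strand, read 5′ to 3′ in the direction of transcription), at chr6:131951373-131951622 for CTGF, chr10:90921088-90921337 for ANKRD1 and chr3:134375418-134375667 for AMOTL2. Capitals mark GGAATG, the core of the motif bound by TEAD proteins, searched on both strands.
CTGF: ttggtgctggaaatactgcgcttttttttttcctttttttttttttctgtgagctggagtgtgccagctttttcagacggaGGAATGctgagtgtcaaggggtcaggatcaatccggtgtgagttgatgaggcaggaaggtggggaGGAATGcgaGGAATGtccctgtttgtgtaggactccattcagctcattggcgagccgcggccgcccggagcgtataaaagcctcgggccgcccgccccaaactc
ANKRD1: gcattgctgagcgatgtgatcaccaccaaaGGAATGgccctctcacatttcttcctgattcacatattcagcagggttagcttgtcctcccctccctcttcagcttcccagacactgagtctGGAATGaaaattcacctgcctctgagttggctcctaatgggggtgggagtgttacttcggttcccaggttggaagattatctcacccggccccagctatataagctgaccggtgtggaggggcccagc
AMOTL2: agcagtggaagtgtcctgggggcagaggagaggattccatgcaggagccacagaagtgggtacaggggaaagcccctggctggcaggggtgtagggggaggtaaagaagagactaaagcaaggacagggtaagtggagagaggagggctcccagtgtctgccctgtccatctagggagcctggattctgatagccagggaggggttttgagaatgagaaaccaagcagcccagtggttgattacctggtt
CTGF held 3 matches, which begin 169, 104 and 95 bases before the start, and ANKRD1 held 2, at 220 and 128 bases. AMOTL2 held none in this window. Of the other members found in the promoter table, YAP1 had 1 match at 162 bases and WWTR1, TEAD2 and TEAD3 had none in their windows. The WWTR1 window (chr3:149703274-149703523) lies inside the annotated gene, which extends to 149736714 on the minus strand. The bases before that outer start were not searched. TEAD1, TEAD4 and CYR61 were not among the 7 matched. Over all 35116 promoters of the table, 11.9% held the core in a window of this length. The pattern TGANTCA, a loose form of the AP-1 motif with any base allowed at N, was searched on both strands. It occurred in 6.57% of all promoters and once among the 7 members, as TGATTCA 195 bases before the ANKRD1 start. That match has T at N, and stricter forms of the motif were not counted apart. It does not overlap the TEAD core matches. A match is a description of the sequence and says nothing about binding in these cells.

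JQ1 changed 7 of the 10 genes in wild-type cells and 6 in knockout cells, in both directions (edgeR quasi-likelihood test, Benjamini-Hochberg adjusted p under 0.05 over all genes tested). In wild-type cells WWTR1, TEAD1, CYR61 and CTGF rose and YAP1, TEAD2 and ANKRD1 fell. In knockout cells the same genes other than CYR61 passed the test, each in the same direction. Across all genes tested, 33.1% passed in wild type (16.9% higher, 16.2% lower) and 34.4% in knockout (16.7% higher, 17.8% lower). The median log2 fold change of the 10 genes was -0.08 in wild type and -0.06 in knockout, beside -0.03 and 0 over all genes. The range of the 10 log2 fold changes was -2.81 to 1.48 in wild type and -2 to 1.31 in knockout. Groups did not overlap for 8 of the 10 genes in wild type and 6 in knockout, beside 50.4% and 42.3% of all genes. In bulk RNA, fewer cells with a transcript and less RNA per cell cannot be told apart.

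**Figure D1:**
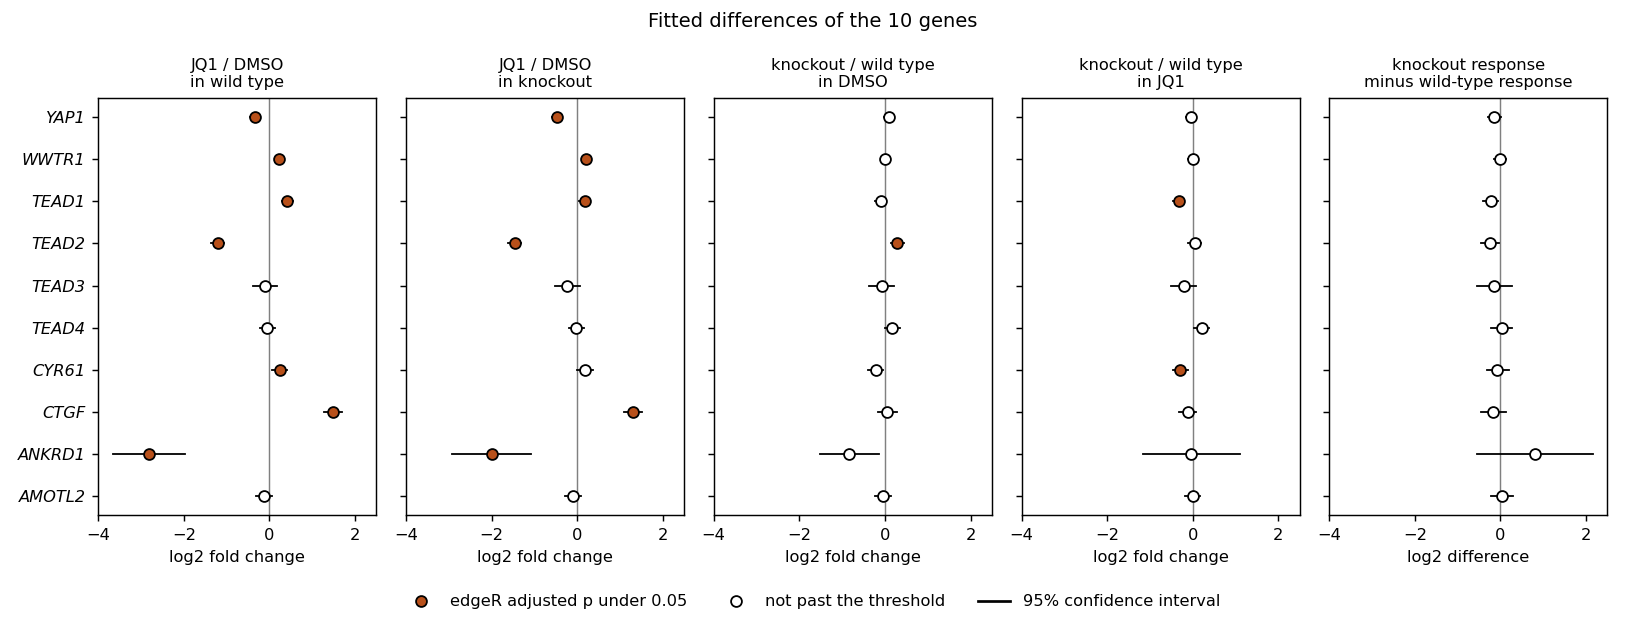
Fitted log2 fold changes of the 10 genes in the 5 comparisons (x axis, log2), with 95% confidence intervals as lines. Filled points passed an edgeR adjusted p of 0.05. ANKRD1, TEAD2 and CTGF lie farthest from 0 under JQ1 in both genotypes, and no point is filled for the difference between the genotypes' responses.

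The coactivator genes moved in opposite directions under JQ1. YAP1 (chromosome 11, 102110461 to 102233423, plus strand, GRCh38) was at 206, 217 and 213 CPM in wild-type DMSO and at 167, 176 and 162 CPM in wild-type JQ1. In knockout cells it was at 229, 219 and 228 CPM with DMSO and at 160, 170 and 157 CPM with JQ1. Every JQ1 library was below every DMSO library. YAP1 thus fell 1.26-fold in wild type (log2 fold change -0.33, SE 0.05, adjusted p = 0.000177) and 1.39-fold in knockout (-0.47, SE 0.05, adjusted p = 6.47e-06). WWTR1 (chromosome 3, 149517235 to 149736714, minus strand), whose product TAZ is the paralogue of YAP, was at 852, 895 and 862 CPM in wild-type DMSO and at 1013, 1048 and 968 CPM in wild-type JQ1. Its knockout values were 854, 881 and 888 CPM with DMSO and 982, 1035 and 1003 CPM with JQ1. Here every JQ1 library was above every DMSO library, a 1.16-fold rise in wild type (log2 fold change 0.22, SE 0.05, adjusted p = 0.00211) and a 1.15-fold rise in knockout (0.20, SE 0.05, adjusted p = 0.00291). The sizes depended on the scaling. For WWTR1, with library totals in place of TMM, which lowers the median of all genes by 0.13 in wild type and 0.12 in knockout, the value was 0.09 in both genotypes (adjusted p = 0.184 and 0.168). With the authors' factors the wild-type values were 0.35 for WWTR1 (adjusted p = 0.000142) and -0.21 for YAP1 (adjusted p = 0.0129). Reads from WWTR1-AS1, an antisense gene that shares 795 exon bases with WWTR1, were assigned at 2.44 to 4.02 CPM, and whether counting used the strand is not stated. Genes that share exon bases with YAP1, TEAD2, CTGF and AMOTL2 stayed at or below 0.328 CPM.

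The balance between the coactivator mRNAs does not depend on library scaling, since both are read in the same library. Per kilobase of the longest coding transcript, WWTR1 exceeded YAP1 by 4.40 ± 0.0436 times in wild-type DMSO and by 6.44 ± 0.0700 times in wild-type JQ1 (SD, n = 3). In knockout cells the ratio was 4.16 ± 0.155 with DMSO and 6.65 ± 0.168 with JQ1. DMSO and JQ1 libraries did not overlap in either genotype. The exact two-sided permutation p was 0.1 in each genotype, the smallest that 3 against 3 allows, and 0.139 after Benjamini-Hochberg adjustment over the 32 ratio tests made. The size of the ratio depends on the length used. With the shortest coding transcript of each gene it was 3.49 and 5.11 in wild type and 3.30 and 5.28 in knockout, DMSO first.

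**Figure D2:**
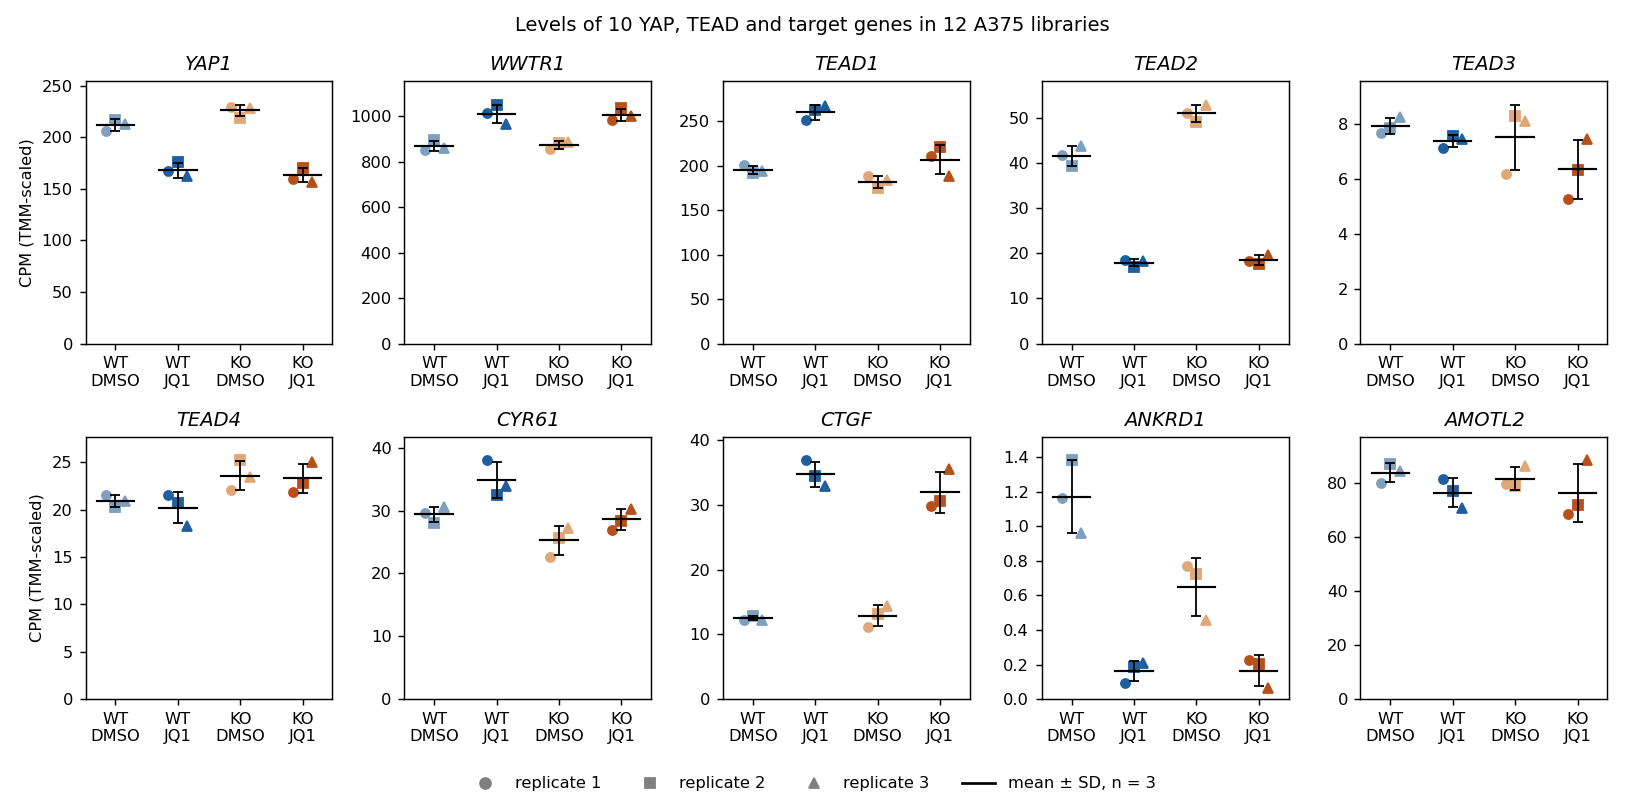
CPM of each of the 10 genes (y axis, linear from 0, a scale per panel) in the 12 libraries, by group; symbols give the replicate number and bars the mean and SD of 3. WT is wild type and KO the MAPKAPK2 knockout. TEAD2 and ANKRD1 are low and CTGF is high in all 6 JQ1 libraries, whereas TEAD3, TEAD4 and AMOTL2 stay within narrower ranges. The TEAD4 points lie higher in knockout than in wild type in both treatments, but neither difference passed the test.

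Among the TEAD genes, TEAD2 fell with JQ1 in both genotypes and TEAD1 rose, while TEAD3 and TEAD4 did not pass the test. TEAD2 (chromosome 19, 49340595 to 49362457, minus strand) was at 41.8, 39.3 and 43.8 CPM in wild-type DMSO and at 18.5, 17.0 and 18.3 CPM in wild-type JQ1. In knockout cells it went from 51.0, 49.1 and 52.8 CPM to 18.2, 17.7 and 19.6 CPM. The 6 JQ1 libraries spanned 17.0 to 19.6 CPM and the 6 DMSO libraries 39.3 to 52.8 CPM. The fall was 2.32-fold in wild type (log2 fold change -1.21, SE 0.07, adjusted p = 1.35e-08) and 2.75-fold in knockout (-1.46, SE 0.07, adjusted p = 1.62e-09), and it passed the threshold in all 21 alternative analyses of each.

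TEAD1 (chromosome 11, 12674591 to 12944483, plus strand), the most abundant TEAD gene, was at 201, 192 and 194 CPM in wild-type DMSO and at 251, 263 and 267 CPM in wild-type JQ1. Its knockout values were 188, 175 and 184 CPM with DMSO and 211, 221 and 189 CPM with JQ1. In wild type the groups lay well apart, a 1.33-fold rise (log2 fold change 0.41, SE 0.06, adjusted p = 8.95e-05). In knockout they were separated only by the gap between 188 and 189 CPM, and the rise was 1.13-fold (0.18, SE 0.06, adjusted p = 0.0291). This second call was lost in 13 of 21 alternatives. They include leaving out any 1 of wild-type DMSO replicates 1, 2 and 3, knockout DMSO replicates 1, 2 and 3, or knockout JQ1 replicates 1 and 2 (adjusted p = 0.0504 to 0.144), and library totals (0.07, adjusted p = 0.485). Without knockout JQ1 replicate 3 the rise was 0.24 (adjusted p = 0.00109).

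TEAD3 (chromosome 6, 35473597 to 35497076, minus strand) was the least abundant family member, at 5.25 to 8.27 CPM over all libraries, with a mean of 7.92 ± 0.298 CPM in wild-type DMSO and 7.38 ± 0.229 in wild-type JQ1. Its replicates did not overlap in wild type, but the log2 fold change of -0.10 (95% confidence interval -0.39 to 0.18, adjusted p = 0.607) did not pass. In knockout it was -0.24 (-0.53 to 0.06, adjusted p = 0.208). TEAD4 (chromosome 12, 2959330 to 3040673, plus strand) was at 20.9 ± 0.630 CPM in wild-type DMSO and 20.2 ± 1.64 in wild-type JQ1, and at 23.6 ± 1.56 and 23.3 ± 1.56 in knockout. The groups overlapped in both genotypes, with log2 fold changes of -0.05 (95% confidence interval -0.23 to 0.13) and -0.02 (-0.19 to 0.16).

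Per kilobase, TEAD1 made up 70.5 ± 0.723% of the summed TEAD level in wild-type DMSO and 82.4 ± 1.06% in wild-type JQ1, and 65.7 ± 1.37% and 77.5 ± 2.52% in knockout (SD, n = 3). The TEAD2 share went from 15.7 ± 0.643% to 5.93 ± 0.336% in wild type and from 19.2 ± 0.361% to 7.27 ± 0.751% in knockout. Neither share overlapped between DMSO and JQ1 (exact two-sided permutation p = 0.1, the smallest possible, adjusted 0.139 over 32 tests). TEAD4 held 8.62 to 14.8% and TEAD3 1.68 to 2.60% over the 12 libraries. With the shortest coding transcript of each gene as the length, an alternative chosen after the data were seen, TEAD1 held 75.9% and 86.6% in wild type and 71.5% and 82.8% in knockout, and the order of the shares between DMSO and JQ1 was the same.

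**Figure D3:**
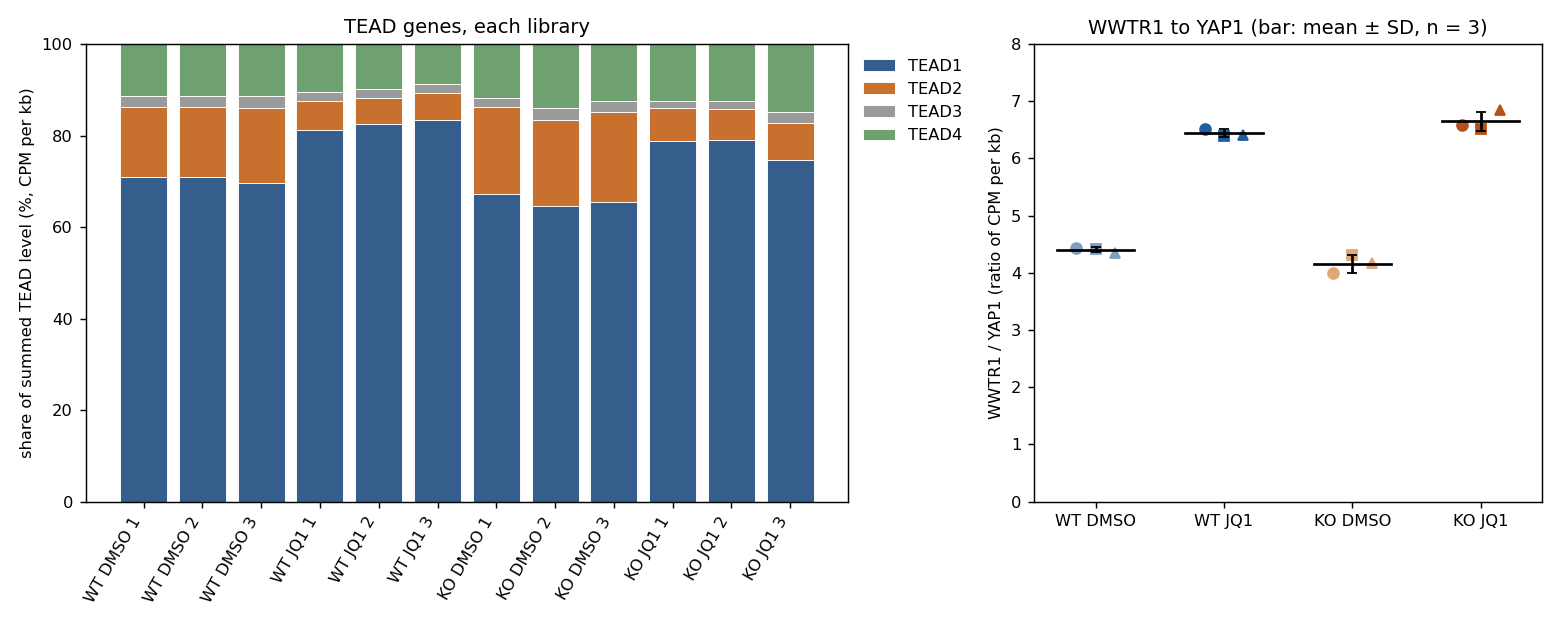
Left, share of each TEAD gene in the summed TEAD level (%, CPM per kb) in each of the 12 libraries; right, ratio of WWTR1 to YAP1 (CPM per kb) per library, with the mean and SD of 3 replicates. TEAD2 takes 15.2 to 19.6% of the DMSO libraries and 5.58 to 8.08% of the JQ1 libraries, and every JQ1 ratio is above every DMSO ratio.

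The 4 target genes did not move together under JQ1: CTGF rose, ANKRD1 fell, CYR61 rose slightly in wild type, and AMOTL2 did not pass the test. CTGF (chromosome 6, 131948176 to 131951373, minus strand), a secreted matricellular protein and a standard YAP/TAZ reporter gene, was at 12.3, 12.8 and 12.3 CPM in wild-type DMSO and at 36.9, 34.5 and 33.0 CPM in wild-type JQ1. In knockout cells it was at 11.2, 13.2 and 14.4 CPM with DMSO and 29.8, 30.6 and 35.6 CPM with JQ1. Each JQ1 library was at more than 2 times the level of each DMSO library, and the window with 3 TEAD core matches shown above belongs to this gene. The rise was 2.79-fold in wild type (log2 fold change 1.48, SE 0.10, adjusted p = 4.58e-08) and 2.48-fold in knockout (1.31, SE 0.10, adjusted p = 1.28e-07).

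ANKRD1 (chromosome 10, 90912096 to 90921276, minus strand), a nuclear ankyrin repeat protein, went the opposite way. Its window was the other with TEAD core matches among those shown above, while CYR61 had no promoter entry to search. ANKRD1 was detected with 39, 39 and 35 counts in wild-type DMSO and 3, 5 and 7 in wild-type JQ1. In knockout cells it had 24, 21 and 13 counts with DMSO and 6, 5 and 2 with JQ1. No JQ1 library reached a DMSO library, although the counts are small and the intervals wide. The fall was 7.02-fold in wild type (log2 fold change -2.81, 95% confidence interval -3.65 to -1.98, adjusted p = 6.17e-05) and 4.01-fold in knockout (-2.00, -2.92 to -1.09, adjusted p = 0.00203). Without knockout JQ1 replicate 3 the fall in knockout was -1.57 (adjusted p = 0.01).

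CYR61 (chromosome 1, 85580761 to 85583962, plus strand), the CCN family relative of CTGF, changed far less. It was at 29.6, 28.1 and 30.6 CPM in wild-type DMSO and 38.0, 32.5 and 34.0 CPM in wild-type JQ1. In knockout it was at 22.7, 25.7 and 27.3 CPM with DMSO and 27.0, 28.3 and 30.3 CPM with JQ1. The wild-type groups did not overlap and the knockout groups did. The rise was 1.18-fold in wild type (log2 fold change 0.24, SE 0.08, adjusted p = 0.0354), and the value in knockout was 0.18 (SE 0.08, adjusted p = 0.122). The wild-type call was lost when any 1 of wild-type DMSO replicates 1, 2 and 3 or wild-type JQ1 replicates 1 and 3 was left out (adjusted p = 0.0534 to 0.166), and with library totals (0.11, adjusted p = 0.309).

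The ratio of CTGF to CYR61 per kilobase, which library scaling does not touch, was 0.415 ± 0.0272 in wild-type DMSO and 0.980 ± 0.0520 in wild-type JQ1. In knockout it was 0.5 ± 0.0172 with DMSO and 1.1 ± 0.0473 with JQ1, with no overlap in either genotype (exact two-sided permutation p = 0.1, adjusted 0.139). AMOTL2 (chromosome 3, 134355874 to 134375479, minus strand), an angiomotin family protein that binds YAP and is itself a target gene, was at 80.2, 87.0 and 84.6 CPM in wild-type DMSO and 81.6, 77.2 and 70.7 CPM in wild-type JQ1. In knockout it was at 79.6, 79.0 and 86.5 CPM with DMSO and 68.6, 71.8 and 88.4 CPM with JQ1, the last value being that of knockout JQ1 replicate 3. The groups overlapped in both genotypes, with log2 fold changes of -0.13 (95% confidence interval -0.32 to 0.05) and -0.10 (-0.28 to 0.09). Without knockout JQ1 replicate 3 the value in knockout passed the test (-0.22, adjusted p = 0.02), and in wild type it passed with library totals (-0.26, adjusted p = 0.0202).

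Between genotypes, 1 of the 10 genes passed the test in DMSO and 2 in JQ1. In DMSO TEAD2 alone of the 10 passed the test, where it was higher in knockout, beside 7.92% of all genes (3.47% higher, 4.44% lower). In JQ1 TEAD1 and CYR61 passed, both lower in knockout, beside 8.57% of all genes (3.01% higher, 5.56% lower). Genotypes did not overlap for 6 of the 10 genes in DMSO and 3 in JQ1, beside 29.6% and 23.1% of all genes. The median log2 fold change of the set was -0.02 in DMSO and -0.04 in JQ1, beside 0 over all genes in each. These comparisons share their libraries with the JQ1 comparisons above, so the values are given side by side and not correlated.

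TEAD2 was 1.23-fold higher in knockout than in wild type with DMSO (log2 fold change 0.29, SE 0.07, adjusted p = 0.013), with 49.1 to 52.8 CPM against 39.3 to 43.8 CPM and no overlap. With JQ1 the difference was 0.05 (95% confidence interval -0.11 to 0.20). The call in DMSO was lost without wild-type DMSO replicate 2 (0.26, adjusted p = 0.0779) and without knockout DMSO replicate 3 (0.27, adjusted p = 0.0634). TEAD1 was 1.26-fold lower in knockout with JQ1 (log2 fold change -0.33, SE 0.06, adjusted p = 0.00232), where all 3 knockout libraries were below all 3 wild-type libraries. With DMSO its value was -0.10 (-0.23 to 0.03, adjusted p = 0.396). Part of the JQ1 value rests on knockout JQ1 replicate 3, the lowest of the group at 189 CPM; without it the difference was -0.27 (adjusted p = 0.00189).

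CYR61 was 1.22-fold lower in knockout with JQ1 (log2 fold change -0.29, SE 0.08, adjusted p = 0.0475), and its value with DMSO was -0.22 (SE 0.08, adjusted p = 0.144); in both treatments the genotypes did not overlap. The call in JQ1 stood close to the threshold and was lost in 15 of 21 alternatives. It was lost on leaving out any library other than knockout DMSO replicate 1 and knockout JQ1 replicate 3 (adjusted p = 0.0509 to 0.203), with the replicate block (adjusted p = 0.064) and with DESeq2 size factors (adjusted p = 0.0544). ANKRD1 had 13 to 24 counts in knockout DMSO and 35 to 39 in wild-type DMSO, without overlap, but the log2 fold change of -0.83 (95% confidence interval -1.51 to -0.15, adjusted p = 0.147) did not pass. TEAD4 was at 22.1 to 25.2 CPM in knockout DMSO against 20.3 to 21.5 in wild-type DMSO, and at 21.9 to 25.0 against 18.3 to 21.5 CPM in JQ1, without overlap. Its log2 fold changes of 0.17 (adjusted p = 0.269) and 0.21 (adjusted p = 0.164) did not pass. For YAP1, WWTR1 and CTGF the knockout values in DMSO were 0.09 (-0.02 to 0.20), 0.01 (-0.09 to 0.11) and 0.05 (-0.16 to 0.27).

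The test of the difference between the genotypes in their response to JQ1 called 0 of the 10 genes with edgeR and 0 with DESeq2, beside 0.134% of all genes with edgeR. At an unadjusted p under 0.05 there were 2, a threshold at which the share of all genes was not counted, so the 2 are only described. For TEAD1 the response was 0.41 in wild type and 0.18 in knockout (difference -0.23, SE 0.08, unadjusted p = 0.0155, adjusted p = 0.462). For TEAD2 it was -1.21 and -1.46 (difference -0.25, SE 0.10, unadjusted p = 0.0246, adjusted p = 0.512). For CTGF the difference was -0.17 (95% confidence interval -0.46 to 0.12) and for YAP1 -0.14 (-0.30 to 0.02). For ANKRD1 it was 0.81 (-0.54 to 2.16), the widest interval of the 10.

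Other genes of the pathway were described by lists from general knowledge. Of 19 Hippo kinases and upstream regulators, all tested, JQ1 raised 5 and lowered 4 in wild type, and raised 4 and lowered 5 in knockout, beside 33.1% and 34.4% of all genes called. The median log2 fold change was 0.05 and -0.11. DCHS1, a large protocadherin that acts as the ligand of FAT4, fell from 13.9 ± 0.483 to 3.78 ± 0.355 CPM in wild type (log2 fold change -1.88, adjusted p = 1.29e-07) and from 14.1 ± 1.68 to 3.74 ± 0.766 CPM in knockout (-1.90, adjusted p = 1.09e-07). SAV1, the scaffold of the MST kinases, fell from 35.4 to 22.0 CPM in wild type (-0.69, adjusted p = 1.72e-06) and from 31.6 to 20.6 CPM in knockout (-0.62, adjusted p = 4.33e-06). LATS1, a kinase of YAP and TAZ, fell as well (-0.36, adjusted p = 0.00129, and -0.53, adjusted p = 4.94e-05), whereas its paralogue LATS2 was at -0.21 in each genotype and did not pass. WWC3, of the KIBRA family of LATS activators, rose (0.64, adjusted p = 0.000155, and 0.73, adjusted p = 4.99e-05). Its relatives did not: WWC1 (KIBRA) fell in wild type (-1.32, adjusted p = 0.000378) and was at -0.43 in knockout (adjusted p = 0.169), and WWC2 fell in knockout (-0.24, adjusted p = 0.00552) and was at -0.11 in wild type. TAOK2 (0.59, adjusted p = 0.00246, and 0.77, adjusted p = 0.000286) and MOB1A (0.24, adjusted p = 0.0313, and 0.27, adjusted p = 0.0177) also rose in both genotypes. The MST kinase genes STK3 (0.22 and 0.13) and STK4 (0.07 and 0.09) did not pass. Higher in knockout than in wild type with DMSO were 2 of the 19, MAP4K4 (0.25, adjusted p = 0.0045) and WWC2 (0.26, adjusted p = 0.0128). Of all genes, 7.92% were called in that comparison, and 3.47% of all genes were called higher. None of the 19 passed in JQ1, beside 8.57% of all genes. There 4 had an unadjusted p under 0.05, a threshold at which the share of all genes was not counted. The count of 2 was 1 without wild-type DMSO replicate 2 or knockout DMSO replicate 1, and 5 without knockout JQ1 replicate 3; the count in JQ1 was 1 without knockout JQ1 replicate 2 and 2 without knockout JQ1 replicate 3.

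Of 9 cofactors and inhibitors of YAP, TAZ or TEAD proteins, 8 were tested (VGLL1 had no counts). JQ1 changed 5 in wild type (2 higher, 3 lower) and 4 in knockout (2 higher, 2 lower), with median log2 fold changes of 0.02 and 0, again beside 33.1% and 34.4% of all genes called. The LIM proteins LIMD1 and AJUBA, which bind LATS kinases, fell: LIMD1 from 17.0 ± 0.474 to 7.41 ± 0.0701 CPM in wild type (-1.19, adjusted p = 9.5e-07) and from 13.4 ± 1.41 to 6.56 ± 0.886 CPM in knockout (-1.02, adjusted p = 4.49e-06), and AJUBA by 0.43 and 0.69 on the log2 scale (adjusted p = 0.00225 and 5.26e-05). AMOTL1, an angiomotin that binds YAP, rose (0.37, adjusted p = 2.61e-05, and 0.24, adjusted p = 0.00116). VGLL4, which competes with YAP for TEAD proteins, rose in knockout (0.27, adjusted p = 0.000751) and was at 0.13 in wild type (adjusted p = 0.0654). It was also higher in knockout than in wild type, at 107 to 110 against 88.1 to 91.6 CPM with DMSO (0.27, adjusted p = 0.00372) and at 125 to 137 against 97.8 to 99.0 CPM with JQ1 (0.41, adjusted p = 0.000107). In knockout against wild type, 3 of the 8 passed in each treatment, beside 7.92% of all genes in DMSO and 8.57% in JQ1, and the DMSO count was 5 without knockout JQ1 replicate 3, with DESeq2, with library totals and with only the groups compared.

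Of 18 other YAP/TAZ target genes, 17 were tested. JQ1 changed 7 in wild type, 2 higher and 5 lower, and 10 in knockout, 3 higher and 7 lower. Of all genes, 16.9% were called higher and 16.2% lower in wild type, and 16.7% and 17.8% in knockout. The median was -0.13 and 0.02. IGFBP3, a secreted binding protein of insulin-like growth factors, fell from 138 ± 3.63 to 46.1 ± 1.98 CPM in wild type (-1.59, adjusted p = 1.07e-10) and from 192 ± 7.36 to 56.1 ± 1.70 CPM in knockout (-1.77, adjusted p = 2.98e-11). MYOF, a ferlin of the plasma membrane, fell (-0.95, adjusted p = 5.48e-09, and -1.22, adjusted p = 5.4e-10), as did the RNA-binding protein gene RBMS3 (-1.53, adjusted p = 2.07e-07, and -1.96, adjusted p = 1.6e-08). The genes called higher in wild type were the receptor kinase gene AXL (0.92, adjusted p = 8.35e-07) and NT5E, which encodes the ectonucleotidase CD73 (0.56, adjusted p = 7.71e-06). These 2 are named because the count is small, after their values were seen.

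Between genotypes, 6 genes of this list were lower in knockout and 1 was higher in each treatment, beside 4.44% lower and 3.47% higher of all genes in DMSO and 5.56% and 3.01% in JQ1, with medians of -0.15 in DMSO and -0.24 in JQ1 beside 0 over all genes. CRIM1 was lower in both treatments (-0.29, adjusted p = 0.0013, and -0.30, adjusted p = 0.00107), as was MYOF (-0.18, adjusted p = 0.035, and -0.46, adjusted p = 3.77e-05). IGFBP3 was higher (0.47, adjusted p = 5.19e-05, and 0.28, adjusted p = 0.00473). PTPN14, a phosphatase that binds YAP and stands in both this list and the cofactor list, was lower (-0.36, adjusted p = 0.000951, and -0.35, adjusted p = 0.0012). It lies on chromosome 1 distal to MAPKAPK2, where 42.8% of the 299 tested genes were called lower in DMSO and 46.2% in JQ1, with median log2 fold changes of -0.39 and -0.37; the part of this in the PTPN14 value was not tested. None of the 10 genes of the set lies there. The counts were unstable: in DMSO the 7 calls were 3 or 4 when any 1 of the 6 DMSO libraries was left out, and in JQ1 they were 4 without wild-type JQ1 replicate 2 and 3 with only the groups compared. They also moved up, to 8 in each treatment without knockout JQ1 replicate 3. Alternatives other than leaving out a library gave up to 9 in each treatment. With only the groups compared, JQ1 changed 11 of the 17 in wild type. The count of 10 for JQ1 in knockout was 8 to 9 on leaving out any library and 6 at an adjusted p of 0.01.

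**Figure D4:**
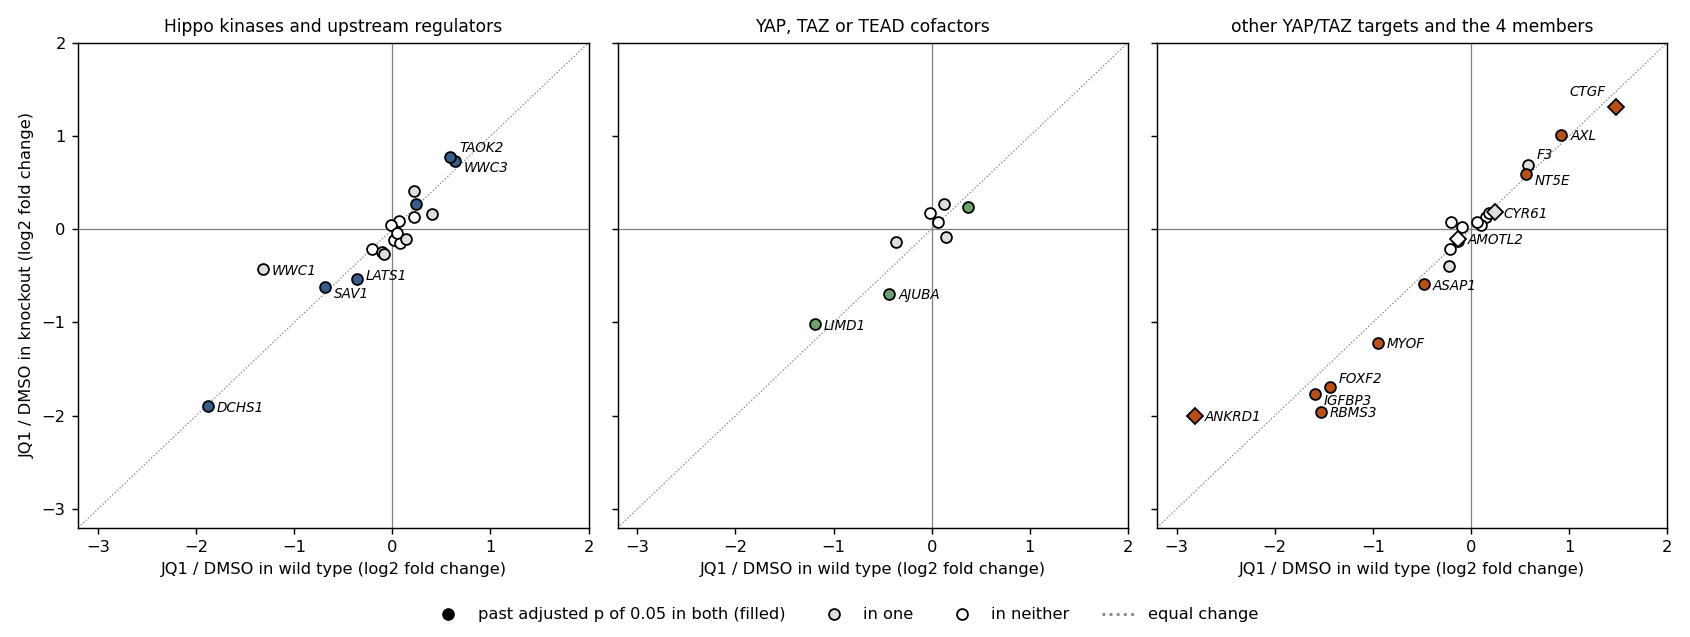
Log2 fold change with JQ1 in wild type (x axis) and in knockout (y axis) for the Hippo regulators, the cofactors and the target genes; diamonds are CYR61, CTGF, ANKRD1 and AMOTL2. Filled symbols passed the test in both genotypes. Targets occupy both the upper right, where CTGF is at 1.48 and 1.31, and the lower left, where ANKRD1 is at -2.81 and -2.00.

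Of the 4 other CCN family genes, 2 had enough counts to test. NOV (CCN3) rose with JQ1 from 1.76 ± 0.213 to 5.27 ± 0.594 CPM in wild type (1.57, adjusted p = 1.61e-06) and from 1.03 ± 0.0688 to 3.96 ± 0.417 CPM in knockout (1.94, adjusted p = 4.71e-07), as CTGF did. WISP3 (CCN6) fell in wild type from 2.20 ± 0.454 to 0.877 ± 0.182 CPM (-1.33, adjusted p = 0.00262), and in knockout its value was -0.75 (adjusted p = 0.15), which passed without knockout DMSO replicate 3. Both were lower in knockout than in wild type with DMSO (NOV -0.79, adjusted p = 0.01, and WISP3 -1.77, adjusted p = 0.00168), beside 4.44% of all genes called lower. The count of 2 was 1 without wild-type DMSO replicate 3.

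Between genes, levels were compared per kilobase of the longest coding transcript. In wild-type DMSO the order was WWTR1 (173 ± 4.47 CPM per kb), TEAD1 (76.8 ± 1.85), YAP1 (39.3 ± 1.03), AMOTL2 (18.6 ± 0.769), TEAD2 (17.0 ± 0.922), CYR61 (12.9 ± 0.540), TEAD4 (12.4 ± 0.373), CTGF (5.33 ± 0.129), TEAD3 (2.66 ± 0.0998) and ANKRD1 (0.590 ± 0.106). The ranges of AMOTL2 and TEAD2 overlapped, as did those of CYR61 and TEAD4, and these neighbours were not separated. In wild-type JQ1 TEAD2 stood at 7.35 ± 0.324 and CTGF at 14.9 ± 0.827 CPM per kb, so that CTGF was above TEAD2 there and below it in wild-type DMSO. The knockout groups showed the same exchange, from 20.9 ± 0.766 against 5.53 ± 0.700 with DMSO to 7.58 ± 0.416 against 13.7 ± 1.35 with JQ1. With the shortest coding transcripts the JQ1 means lay closer, TEAD2 at 12.4 and CTGF at 14.9 CPM per kb in wild type. In knockout they were at 35.3 and 5.53 with DMSO and at 12.8 and 13.7 with JQ1. The order of the means was exchanged there too, but the size of the gap depends on the length used. WWTR1 was highest and ANKRD1 lowest in all 4 groups also with the shortest coding transcripts, but the places of YAP1 and TEAD1 were exchanged in the DMSO groups under that choice (155 and 153 CPM per kb in wild-type DMSO).

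The genes most like each member over the 12 libraries were found by Pearson's r of log2 CPM among 11250 tested genes whose mean reached 5 CPM (11251 for ANKRD1). The libraries fall into the same 4 groups for every gene, and the values are descriptive. CTGF was nearest to ESYT1 (r = 0.995) and HEXIM1 (0.993), the latter a widely used marker gene of BET inhibition. TEAD2 was nearest to TBC1D4 (0.995) and MANSC1 (0.994), YAP1 to PROCR (0.989) and GALNT14 (0.987), and WWTR1 to CSTB and TYW1B (0.983 each). TEAD1 was nearest to ARHGEF12 (0.985) and HIF1A (0.982), and ANKRD1 to NEMP1 (0.980) and RAD51AP1 (0.979). The members with little response had lower highest values: CYR61 with ANPEP (0.954) and COL5A1 (0.948), AMOTL2 with USP21 (0.949) and MLLT1 (0.939), TEAD3 with SLC29A2 (0.945) and ITPR3 (0.920), and TEAD4 with ATP5G2 (0.936) and BCAR3 (0.917).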

How the data were processed

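Ribosomal RNA-depleted total RNA was sequenced as directional libraries, per the labels' protocols. The submitters' processing notes name Trim Galore, cutadapt, FastQC, MultiQC, kallisto, DESeq2 and GRCh38.p10, without versions or order. The authors deposited estimated counts per gene symbol and, in a second table, a normalized signal for 32828 genes, which equals the rounded count divided by a factor for gene and library; it was used only in alternatives. Whether counting used the strand, and its annotation, are not given in the sources used here.

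Here the estimated counts were rounded, a step the unit required because testing had been planned for raw counts. Low-count genes were removed with filterByExpr, libraries were scaled by TMM, and all 12 libraries entered a single edgeR quasi-likelihood model with a term per group (edgeR 4.0.16, limma 3.58.1, R 4.3.3). The 21698 p-values of each comparison received Benjamini-Hochberg adjustment, with a threshold of 0.05. SE is the absolute log2 fold change over the root of the F statistic. Depth was 25316899 to 34594295 counts per library. The test was run first on simulated counts with known changes.

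Every member was reported. From each pathway list, up to 3 genes per contrast with the smallest adjusted p were named, and up to 2 nearest genes per member. Other list genes (AXL, NT5E, WWC1, TAOK2, MOB1A, LATS2, STK3 and STK4) were chosen after their values were seen. Members and lists were chosen with earlier results of these data known. LATS2 and PTPN14 each stand in 2 lists. Alternatives were DESeq2 1.42.0, its size factors, library totals, no count filter, a mean of at least 1 CPM, the authors' factors as offsets, limma on log2 of the authors' normalized signal plus 1, only the groups compared, the replicate number as a block, an adjusted p of 0.01, and each library left out. Gene coordinates and lengths came from GENCODE release 29 (GRCh38), and promoter sequences from RefSeq (GRCh38.p14), where 7 of the 10 members matched.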

Additional observations from a re-analysis of the deposited data

How the results depend on the processing

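The JQ1 calls of YAP1, TEAD2, CTGF and ANKRD1 were kept in both genotypes under each alternative that tested them. The number of the 10 genes called for JQ1 was 6 to 7 in wild type and 4 to 7 in knockout, and for the difference between genotypes 0 throughout. Over all genes, the alternatives called 4781 to 8740 for JQ1 in wild type and 5120 to 7659 in knockout. For knockout they called 926 to 2650 of all genes in DMSO and 922 to 2331 in JQ1. Of the 10 genes, the number for knockout in DMSO was 0 at an adjusted p of 0.01 and 0 to 1 on leaving out a library. For knockout in JQ1 it was 1 with DESeq2 size factors, the replicate block, the authors' factors, limma, only the groups compared or an adjusted p of 0.01, and 1 to 2 on leaving out a library; the loss was CYR61. Replicate numbers did not pair the libraries: over 18 same-numbered pairs the correlation of deviations was -0.115 to 0.0786, and 1 of 12 libraries was closest to its own number.

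Signs that turned belonged to uncalled values near 0. For WWTR1, knockout in DMSO was -0.04 with library totals, knockout in JQ1 was 0 with DESeq2, its size factors or a mean of at least 1 CPM, and the difference was 0 with library totals or that mean. For AMOTL2, knockout in DMSO was 0.01 with the authors' factors or limma. Knockout in JQ1 was 0 with DESeq2 or its size factors and 0.01 with a mean of at least 1 CPM, and the difference was -0.03 with the authors' factors and -0.04 with limma. The cause was not tested. Leaving out a library gave, for JQ1, TEAD4 -0.10 to 0.02 in wild type and -0.07 to 0.03 in knockout. For knockout in DMSO it gave TEAD3 -0.14 to 0.06, CTGF -0.03 to 0.16 and AMOTL2 -0.08 to 0. For knockout in JQ1 it gave WWTR1 -0.03 to 0.02, TEAD2 0 to 0.08, ANKRD1 -0.35 to 0.41 and AMOTL2 -0.12 to 0.07. For the difference it gave WWTR1 -0.04 to 0.02, TEAD4 -0.03 to 0.08, CYR61 -0.14 to 0 and AMOTL2 -0.09 to 0.11. Depth limits ANKRD1, with 2 to 39 counts per library.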
